A study of Mus musculus with 4 samples.

Results

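Ranbp3l, Cck, Slco4a1, Lrrn3, Fpr2 and Srpx2 are the 6 genes described here, out of 26793 gene names on the array. They were chosen from the measurements themselves: each had a lower level with PA alone than in control cells, and with PA and ADSC medium together each had a level above that of control cells or of cells given ADSC medium alone. The choice named no threshold. Their levels on the 4 arrays are therefore a description and carry no test. The 6 genes are measured by 9 of the 41146 probes that had a value on every array.

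The cells were IMS/N cells, a mouse line made from hepatic stellate cells of normal 129/Sv livers by immortalization with SV40. There were 4 groups of 1 array each: cells given PA and ADSC medium, cells given PA, cells given ADSC medium, and control cells given neither. PA is the name the labels use, and they do not spell it out. Its dose and time, and what control cells received in its place, are unknown here, as the sources used do not state them. ADSC medium was culture medium taken from adipose tissue-derived stem cells. These came from inguinal subcutaneous fat of male C57BL/6J mice aged 8 to 10 weeks, digested with Liberase, and the labels do not say whether cultures without it received the same base medium. All groups share 1 immortalized line, so its SV40 background is common to treated and control cells, and the medium came from a strain other than that of the cells. With 1 array per group no difference below has a replicate error or a p-value, and none could be tested.

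The 6 genes have separate textbook roles. Cck encodes cholecystokinin, a secreted peptide of gut endocrine cells and neurons that acts through the receptors CCKAR and CCKBR, and Fpr2 encodes a G protein-coupled receptor for formylated peptides, serum amyloid A and annexin A1. Slco4a1 encodes a membrane carrier of organic anions, thyroid hormone among them, Ranbp3l a Ran-binding protein that takes the BMP-regulated Smad proteins out of the nucleus, Lrrn3 a neuronal leucine-rich repeat membrane protein, and Srpx2 a secreted sushi-repeat protein that binds the urokinase receptor. Hepatic stellate cells are the vitamin A storing pericytes of the liver, which turn into matrix-producing myofibroblasts when activated.

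Each level below is the log2 of the scanner's processed intensity after quantile normalization over the 4 arrays, so a difference of 1 is a 2-fold difference. A probe was well above background where the scanner software marked it so, and the lowest level so marked was 2.11 with PA and ADSC medium, 2.07 with PA, 2.30 with ADSC medium and 2.43 in control cells. All 6 genes were well above background on all 4 arrays by their brightest probe, which represents them, and 7 of the 9 probes were. Each of the 9 probes had 1 spot on an array. For scale, 244 other probes were printed on 10 spots of each array, and the difference of 2 such spots on 1 array had an SD of 0.410 at levels under 3, 0.122 at levels of 5 to 7 and 0.0670 at levels of 9 to 11. That SD holds the error within an array only, and no error between cultures.

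On the 4 arrays 67.5 to 70.0% of probes were well above background and no spot was saturated. The 75th percentile of intensity before normalization was 622 with PA, 542 with PA and ADSC medium, 497 with ADSC medium and 495 in control cells. The PA array was thus the brightest before normalization. All 4 arrays shared 1 slide and 1 scan. Among 17 stellate or fibroblast markers 13 were well above background on every array, Vim at 16.05 to 16.08 and Col1a1 at 14.81 to 15.09 among them. Lrat, Reln, Hand2 and Lum were not well above background on any array, and Lrat is the enzyme of vitamin A storage in quiescent stellate cells. The markers Alb of hepatocytes, Ptprc of leukocytes, Pecam1 and Cdh5 of endothelium, Epcam and Cdh1 of epithelium, Snap25 and Neurod1 of neurons or endocrine cells and Adipoq of adipocytes were not well above background on any array. Other genes of those marker lists were measured on all 4: 1 of 7 for hepatocytes, 4 of 9 for macrophages (Lyz2 at 7.0 to 7.88), 4 of 7 for endothelium (Vwf at 8.99 to 9.84 and Kdr at 7.95 to 8.77), 5 of 7 for epithelium (Krt19 at 8.14 to 8.60), 4 of 7 for neurons or endocrine cells (Tubb3 at 8.82 to 9.12), 2 of 6 for neutrophils and 4 of 8 for adipose cells (Fabp4 at 10.95 to 12.07). Fewer cells with a transcript and less of it per cell cannot be told apart in these bulk samples.

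On the array with PA and ADSC medium the level of each of the 6 genes was the highest of the 4, and on the PA array it was the lowest of the 4. The gap between these 2 arrays was 29.2-fold for Ranbp3l, 25.4-fold for Cck, 12.9-fold for Slco4a1, 7.02-fold for Lrrn3, 5.61-fold for Fpr2 and 5.02-fold for Srpx2. The genes parted in ADSC medium alone: Cck was 6.20-fold, Ranbp3l 2.65-fold, Slco4a1 2.39-fold and Lrrn3 1.76-fold above control, while Fpr2 and Srpx2 lay within 0.1 log2 units of control.

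**Figure D1:**
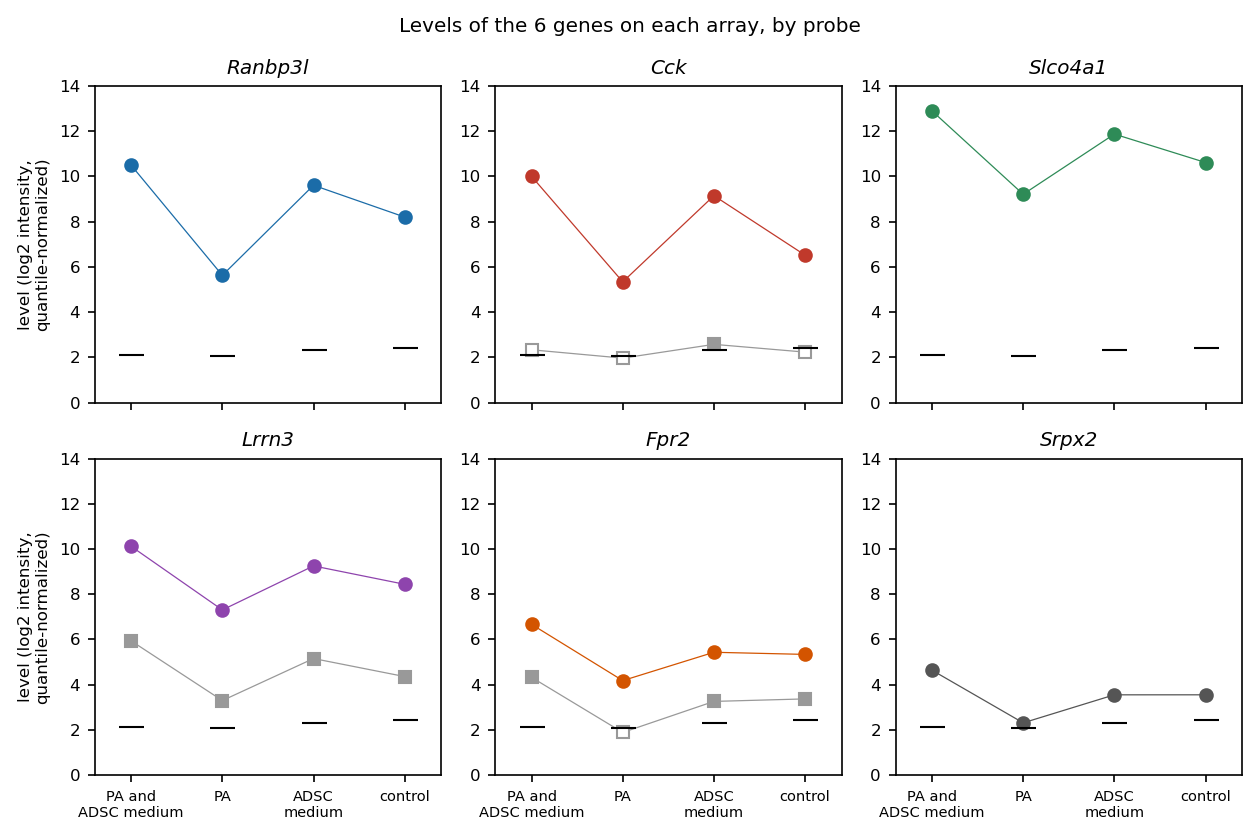
Levels of the 6 genes (vertical axis, log2 quantile-normalized intensity) on each of the 4 arrays (horizontal axis). Coloured circles are the probe that represents a gene and grey squares its other probe, filled where well above background and open where not, and black bars mark each array's lowest level marked as well above background. Every coloured profile is highest with PA and ADSC medium and lowest with PA, and the second Cck probe stays at the black bars.

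Cck, the secreted peptide, had the largest gap to control with both treatments among the 6 genes. Its level was 10.00 with PA and ADSC medium, 5.34 with PA, 9.15 with ADSC medium and 6.52 in control cells. The processed intensities before normalization were 1032 with PA and ADSC medium, 45.6 with PA, 521 with ADSC medium and 85.0 in control cells. Both arrays with ADSC medium were thus far above both arrays without it, and of the arrays without it PA was the lower. With both treatments Cck was 11.2-fold above control, the fourth highest of 17552 genes measured on both arrays, and with ADSC medium alone it was the second highest of 17527.

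The probe behind these values lies at chr9:121399031-121399090 on the reverse strand (mm9). A second Cck probe, at chr9:121402514-121402573, is assigned by the array to another RefSeq transcript of Cck. Its level was 2.33 with PA and ADSC medium, 1.96 with PA, 2.57 with ADSC medium and 2.23 in control cells, and it was well above background on the ADSC medium array alone. It therefore gives no comparison of PA with control or of both treatments with PA. A mean over both probes, which takes any probe detected on at least 1 array and uses its level as it is, gave 2.52 for both treatments minus PA and -0.72 for PA minus control. By the bright probe these were 4.66 and -1.18. The second probe was at background on all the arrays of these comparisons, so the mean lies closer to 0 by its construction.

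The upstream sequence of Cck is shown because Cck is a textbook target of the cAMP-responsive factor CREB, and that of Srpx2 because it shares the E-box letters with Cck and holds an AP-1 element. Both are the 250 bases before the gene start from RefSeq on GRCm38.p6, 5′ to 3′ on the gene's strand, with matches to the E-box CACGTG, the cAMP element TGCGTCA and the AP-1 element TGANTCA in capitals. The Cck window is chr9:121495695-121495944 on the reverse strand, and the Srpx2 window is chrX:133908175-133908424 on the forward strand.
Cck: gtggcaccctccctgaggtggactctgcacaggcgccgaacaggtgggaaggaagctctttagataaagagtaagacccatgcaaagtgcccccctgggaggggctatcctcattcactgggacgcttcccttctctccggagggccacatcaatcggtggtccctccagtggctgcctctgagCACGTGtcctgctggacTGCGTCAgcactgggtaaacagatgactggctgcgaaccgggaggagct
Srpx2: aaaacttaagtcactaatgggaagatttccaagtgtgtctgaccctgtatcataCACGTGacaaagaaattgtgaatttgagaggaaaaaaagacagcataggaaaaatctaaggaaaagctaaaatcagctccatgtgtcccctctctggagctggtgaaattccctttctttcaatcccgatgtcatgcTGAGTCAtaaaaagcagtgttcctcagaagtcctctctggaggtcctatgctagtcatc
In the Cck window TGCGTCA, a variant of the cAMP response element, lies at -49 to -43 from the start. It was found on either strand in 1.75% of 32851 RefSeq promoter windows of the same length. The half-site TGACG, in 17.8% of windows, overlaps it on the reverse strand, and an E-box, CACGTG, in 6.02% of windows, lies at -66 to -61. Srpx2 holds TGAGTCA, a match to the AP-1 letters TGANTCA found in 6.75% of windows, at -59 to -53, and the E-box at -196 to -191.

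Of the 6 genes 5 had promoter windows in the RefSeq table, 6 windows in all, with 2 for Slco4a1. Lrrn3 had no entry in it. The full palindrome TGACGTCA, in 1.55% of all windows, was in 0 of these 6 windows. No searched motif was in more than 2 of the 6 windows. Windows of Ranbp3l and Fpr2 held none of the cAMP, AP-1 or E-box letters, and Slco4a1 held the GC box GGGCGG, which 32.7% of all windows hold. The TATA letters TATAAA, in 12.4% of all windows, were in that of Fpr2, the interferon-type element, in 2.98%, in that of Ranbp3l, and the BMP response core GGCGCC, in 9.59%, in that of Cck. The G and C share was 60.0% for Cck, 41.2% for Srpx2, 38.8% for Fpr2, 48.8% for Ranbp3l and 64.8% and 54.8% for the Slco4a1 windows, against a median of 52.4% over all windows. A match is a run of letters and no measurement of binding.

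Fpr2, the receptor of the group, had a level of 6.66 with PA and ADSC medium, 4.18 with PA, 5.43 with ADSC medium and 5.34 in control cells. The intensities behind them were 104 with PA and ADSC medium, 20.1 with PA, 40.1 with ADSC medium and 37.5 in control cells. ADSC medium alone left it 0.09 log2 units from control, which is less than the SD of 2 spots at this level. With PA and ADSC medium it was 2.51-fold above control and 2.35-fold above ADSC medium alone. With normexp background correction its gap between both treatments and PA was 1.11 log2 units in place of 2.49, and PA minus control was -0.39 in place of -1.16.

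The representing probe of Fpr2 lies at chr17:18030540-18030599 on the forward strand (mm9). A second one, at chr17:18029929-18029988, is listed by the array for Fpr2 and for its neighbour Fpr3, so its signal can come from either gene. Its sequence is shown because it is the only probe in the group whose gene is not settled.
Fpr2 or Fpr3 probe: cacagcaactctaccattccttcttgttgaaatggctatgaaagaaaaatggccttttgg
This probe read 4.32 with PA and ADSC medium, 1.88 with PA, 3.26 with ADSC medium and 3.37 in control cells. It was not well above background on the PA array, so there it gives bounds: at least 4.76-fold higher with PA and ADSC medium than with PA, and at least 2.46-fold lower with PA than in control cells. Its order over the arrays differed from the Fpr2 probe only between ADSC medium and control, which were 0.11 log2 units apart.

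Slco4a1, the carrier, stood far above background on every array. Its level was 12.90 with PA and ADSC medium, 9.21 with PA, 11.87 with ADSC medium and 10.62 in control cells. The probe lies at chr2:180209373-180209432 on the forward strand (mm9). It was 2.65-fold lower with PA than in control cells, and 4.86-fold above control with PA and ADSC medium. Its intensities ran between 690 and 7700, and its 5 differences moved by no more than 0.1 log2 units under the scaling and background alternatives.

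Ranbp3l, the Ran-binding protein, had the largest PA difference and the largest gap between PA and both treatments. Its level was 10.49 with PA and ADSC medium, 5.62 with PA, 9.61 with ADSC medium and 8.20 in control cells. The probe lies at chr15:8996153-8996212 on the forward strand (mm9), and its intensities were 1449 with PA and ADSC medium, 55.5 with PA, 717 with ADSC medium and 274 in control cells. It was 5.97-fold lower with PA than in control cells, the second lowest of 17607 genes measured on both arrays. Its gap between PA and ADSC medium and PA alone was the highest of 17899 genes.

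Lrrn3, the leucine-rich repeat protein, is the member with a second probe of its own at a measurable level. By its brighter probe, at chr12:42178327-42178386 on the reverse strand (mm9), its level was 10.11 with PA and ADSC medium, 7.30 with PA, 9.25 with ADSC medium and 8.44 in control cells. By the other, at chr12:42179142-42179201, it was 5.93 with PA and ADSC medium, 3.29 with PA, 5.15 with ADSC medium and 4.35 in control cells. The 2 probes gave the same order of arrays. They read the same samples on the same 4 arrays, so this is no replicate of a treatment. They put the gap between both treatments and PA at 2.81 and 2.64 log2 units, and PA minus control at -1.13 and -1.06.

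Srpx2, the secreted urokinase receptor ligand, stood close to background. Its level was 4.64 with PA and ADSC medium, 2.31 with PA, 3.55 with ADSC medium and 3.55 in control cells. The probe lies at chrX:130465926-130465985 on the forward strand (mm9), with intensities of 25.5 with PA and ADSC medium, 5.5 with PA, 10.9 with ADSC medium and 10.9 in control cells. On the PA array it stood just above the lowest level called well above background, 2.07, where the SD of 2 spots is 0.410. With normexp background correction its gap between both treatments and PA was 0.32 in place of 2.33, and PA minus control was -0.13 in place of -1.24.

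Counted together, 6 of the 6 genes were at least 2-fold lower with PA than in control cells, against 0.599% of the 18209 genes compared, of which 1.09% were at least 2-fold higher. The choice of the 6 used that contrast, as it used the next 3, so nothing is read from these counts. With PA and ADSC medium 6 of 6 were at least 2-fold above PA, against 1.75% of 18751 genes (0.507% were as far below), and 6 of 6 were at least 2-fold above control, against 1.81% of 18252 (0.422% as far below). Against ADSC medium alone 3 of 6, Fpr2, Srpx2 and Slco4a1, were at least 2-fold higher with both treatments, against 1.26% of 18467 genes (0.477% as far below). The other 3 lay 1.81-fold to 1.85-fold higher.

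ADSC medium against control is the contrast the choice did not name, but it is not independent of the choice. It shares the control array with the PA contrast and the ADSC medium array with another. It is also the gap between both treatments minus control and both treatments minus ADSC medium, contrasts that the choice used. Nothing is read from the counts and median of this contrast either. Here 3 of 6, Cck, Ranbp3l and Slco4a1, were at least 2-fold higher, against 0.533% of 18198 genes (0.121% as far below). The median over the 6 was 1.04, against -0.01 over all genes. Lrrn3 stood at 0.81 and ranked 145 from the highest, Fpr2 ranked 4453 and Srpx2 8392 of 17527.

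Over the other comparisons the medians of the 6 genes were -1.21 for PA minus control, 1.98 for both treatments minus control, 3.25 for both treatments minus PA and 0.96 for both treatments minus ADSC medium. Over all genes these medians lay between -0.02 and -0.01. In the presence of ADSC medium the PA difference was therefore above 0 for all 6, at 0.85 to 1.23, and without it below 0 for all 6, at -2.58 to -1.13.

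**Figure D2:**
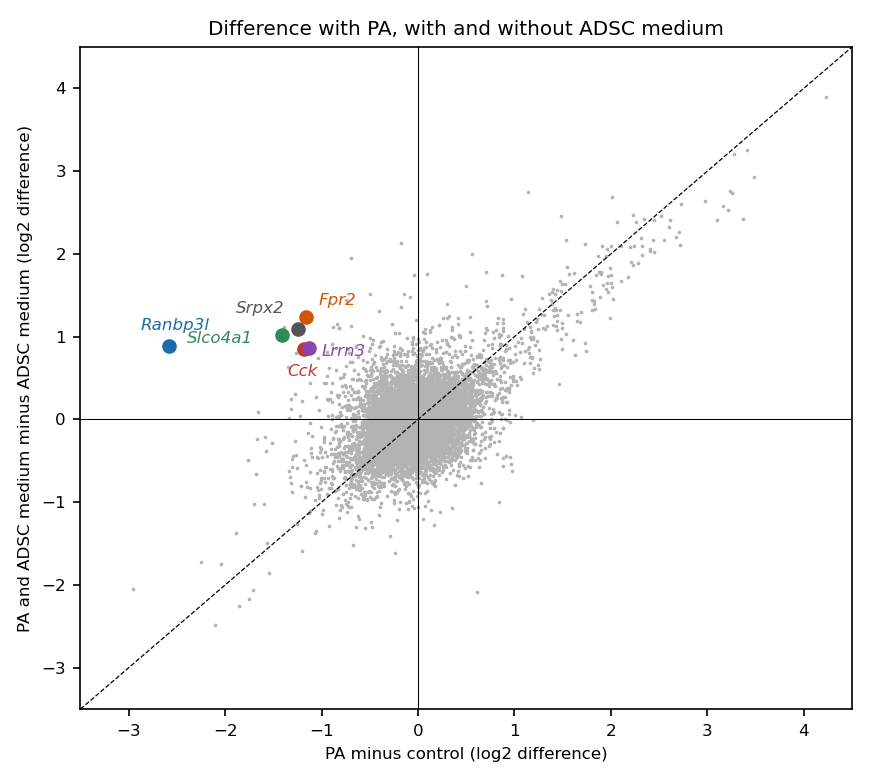
Each of 17355 genes well above background on all 4 arrays by the log2 difference of PA from control (horizontal axis) and of PA and ADSC medium from ADSC medium alone (vertical axis). Grey dots are other genes, coloured points the 6 described here, and on the dashed line the 2 differences are equal. The 6 lie at upper left, between -2.58 and -1.13 across and between 0.85 and 1.23 up.

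The gap between the differences with and without ADSC medium measures how far the level with both treatments lay above the sum of the single ones. It was 3.46 for Ranbp3l, 2.43 for Slco4a1, 2.39 for Fpr2, 2.33 for Srpx2, 2.03 for Cck and 2.0 for Lrrn3. Over 17355 genes the median was -0.01 and the 99th percentile 0.97, and 0.893% of genes reached 1. The 6 genes ranked between 1 and 12 from the highest. For Ranbp3l the sum of the single differences gives a level of 7.03 and the array read 10.49; for Srpx2 the sum gives 2.31 and the array read 4.64. This quantity is part of why the genes were chosen and is not a test of interaction. It was 0.36 for Srpx2 and 1.06 for Fpr2 with normexp background correction, and 1.03 for Cck with its probes averaged.

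**Figure D3:**
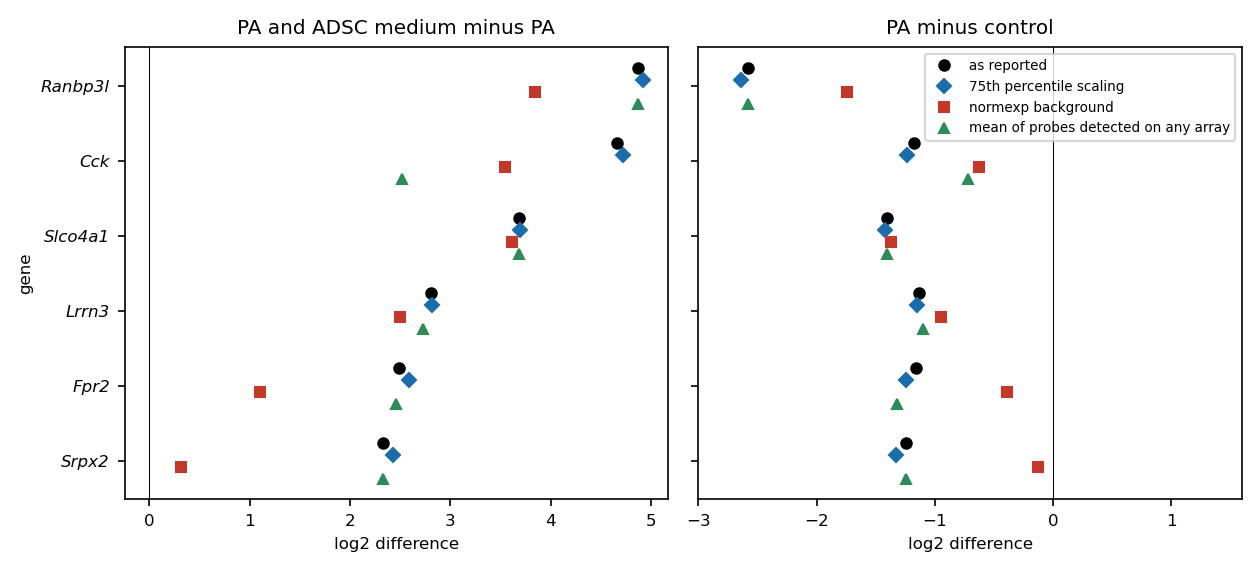
Log2 differences of the 6 genes (horizontal axes) as reported and under 3 other ways of processing, for PA and ADSC medium minus PA (left) and PA minus control (right). Symbols mark the processing. Red squares, the normexp correction, lie at 0.32 for Srpx2 and 1.11 for Fpr2 on the left, against 2.33 and 2.49 as reported, and green triangles, the mean of all probes detected on at least 1 array, put Cck at 2.52 by averaging in a probe at background on both arrays shown there.

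Other genes met the same conditions when a 2-fold threshold was set on both PA contrasts. There were 43 such genes, 0.237% of 18138, and 37 of them were not members. In 22 of the 43 the level with both treatments exceeded both control and ADSC medium alone. It was at least 2-fold above control in 12 and at least 2-fold above ADSC medium in 4: Fpr2, Srpx2, Slco4a1 and 4921509J17Rik. Just inside the 2-fold line with PA stood AK088706, 2.0-fold lower than in control cells, and Aqp5 at -1.01.

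The 10 non-members with the largest gap, measured or bound, between both treatments and PA were Lgr6, 1700016C15Rik, Slc15a3, 4921509J17Rik, Slc17a1, Lce1f, Kprp, Olr1, Aspn and 9930024M15Rik. For Lgr6, 1700016C15Rik, Slc15a3 and Slc17a1 the PA value was not well above background, so their gaps are bounds and their places among the 10 are not settled. Lgr6, an R-spondin receptor, read 6.71 with PA and ADSC medium, 2.34 with PA, 6.62 with ADSC medium and 5.35 in control cells. Olr1, an oxidized LDL receptor, read 7.02 with PA and ADSC medium, 4.55 with PA, 7.50 with ADSC medium and 6.31 in control cells. Aspn, a small leucine-rich matrix proteoglycan, read 7.19 with PA and ADSC medium, 4.72 with PA, 7.09 with ADSC medium and 6.38 in control cells. In Olr1 and Aspn the array with both treatments thus lay within 0.5 log2 units of ADSC medium alone.

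Likeness of profile was measured as the root-mean-square distance over the 4 arrays between log2 levels, each gene centred on its own mean, over 17349 other genes well above background on every array. Within the group Fpr2 and Srpx2 were closest, at 0.0866, and Cck and Srpx2 farthest apart, at 1.25. Nearest to Cck was Cxcl5, a neutrophil-attracting chemokine, at 0.50, with levels of 10.42 with PA and ADSC medium, 5.98 with PA, 8.47 with ADSC medium and 6.67 in control cells. Cxcl5 was also nearest to Ranbp3l, at 0.766, followed by 4921509J17Rik and Gstt4, and after Cxcl5 came Gstt4 and Kprp for Cck.

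For Lrrn3 the 3 nearest were 4921509J17Rik at 0.128, the cholesterol exporter Abcg1 at 0.133 and Lce1f at 0.139. Abcg1 read 9.41 with PA and ADSC medium, 6.91 with PA, 8.55 with ADSC medium and 7.76 in control cells. Those of Slco4a1 were 4921509J17Rik at 0.331, Gstt4 at 0.415 and Kprp at 0.420. Nearest to Fpr2 were Lce1j at 0.135, the small GTPase gene Gem at 0.157 and 9930024M15Rik at 0.159, and nearest to Srpx2 were 9930024M15Rik at 0.119, Lce1j at 0.183 and Lce1h at 0.191. Lce1f, Lce1h and Lce1j belong to the late cornified envelope genes, near-identical copies whose probes may share signal. With 4 arrays such distances describe these arrays only.

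Of the ligands, processing enzymes and receptors around cholecystokinin, 11 of 15 on the array were well above background. Between both treatments and PA 0 of the 10 besides Cck were 2-fold different (median 0.18, against -0.02 over all genes). Over all genes 1.75% were at least 2-fold higher in this comparison and 0.507% as far lower. The receptor Cckar was not well above background on any array. Cckbr, the other receptor, read 3.13 with PA and ADSC medium, 3.47 with PA, 3.37 with ADSC medium and 3.52 in control cells, so its level was low and its arrays lay within 0.4 log2 units. Pcsk1, a convertase that trims the prohormone, was not well above background, while Scg5, a chaperone of the related convertase PC2, was 2.05-fold higher with both treatments than in control cells (4.54 and 3.50).

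Of the Slco transporters 5 of 15 were well above background, and Slco4a1 was the one with a 2-fold difference in any comparison. Slco3a1, a prostaglandin carrier, read 12.17 with PA and ADSC medium, 11.73 with PA, 12.30 with ADSC medium and 12.07 in control cells. Slco2a1, another, lay between 11.37 and 11.46 on the 4 arrays. Of the 12 measured genes of thyroid hormone transport, deiodination and reception, 0 were 2-fold different in any of the 5 comparisons. Over all genes, 0.533 to 1.81% passed 2-fold upward in these comparisons, and 0.121 to 0.599% downward.

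Around Fpr2, 13 of 17 genes of its family and ligands on the array were well above background. Between both treatments and PA 0 of the 12 besides Fpr2 were 2-fold different, where 1.75% of all genes were higher and 0.507% lower by as much. Fpr1, the closest neighbour gene of Fpr2, was not well above background on any array. The ligand annexin A1 is encoded by Anxa1, which read 15.50 with PA and ADSC medium, 15.69 with PA, 15.59 with ADSC medium and 15.68 in control cells. The serum amyloid gene Saa3 read 5.06 with PA and ADSC medium, 5.26 with PA, 3.33 with ADSC medium and 4.18 in control cells, and was thus high on both arrays with PA. It was 2.12-fold above control with PA, and 3.32-fold above ADSC medium alone with both.

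Among Lrrn and related leucine-rich repeat membrane proteins 13 of 28 were well above background. Of the 12 besides Lrrn3 1, the adhesion protein gene Flrt2, was 2-fold different between both treatments and PA. Over all genes 1.75% were at least 2-fold higher in this comparison and 0.507% as far lower. Flrt2 read 9.08 with PA and ADSC medium, 7.59 with PA, 8.60 with ADSC medium and 8.22 in control cells. Lrrn1 and Lrrn2 were not well above background on any array, and Lrrn4 read 7.06 with PA and ADSC medium, 7.36 with PA, 6.82 with ADSC medium and 7.04 in control cells. Around Srpx2, 12 of 16 genes were well above background. Against the same 1.75% of all genes, 1 of the 11 others was at least 2-fold higher with both treatments than with PA. It was the plasminogen activator Plat, 2.31-fold higher (12.72 and 11.50). The paralog Srpx was not well above background. Plaur, the urokinase receptor itself, read 12.49 with PA and ADSC medium, 12.09 with PA, 12 with ADSC medium and 12.19 in control cells.

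Of Smad1/5/8 signalling and Ran-binding genes 28 of 32 were well above background. Against 1.75% of all genes, 2 of the 27 besides Ranbp3l were at least 2-fold higher with both treatments than with PA (median 0.05). These were Bambi, a decoy receptor of the TGF-beta family, at 9.76 with both and 8.31 with PA, and Grem1, a secreted BMP antagonist, at 12.44 with both and 11.33 with PA. Both were 2.16-fold above control with both treatments. Ranbp3, the paralog of Ranbp3l, lay between 10.33 and 10.48 on the 4 arrays.

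Known targets of cAMP and CREB, the list that also holds Cck, had the highest median of the 8 pathway lists between both treatments and PA. The lists were chosen with earlier results of these data known, and the choice of the genes described here used this comparison. The place of the list is therefore a description, and any part of cAMP or CREB in the level of Cck was not tested. Cck aside, 21 genes of the list had a value, and 17 of these were higher with both treatments than with PA by any amount. At least 2-fold higher were 5 of the 21, against 1.75% of all genes, and 0 were as far lower, against 0.507%. The median of the 21 was 0.59, against -0.02 over all genes. The nuclear receptor gene Nr4a2 read 11.23 with PA and ADSC medium, 8.61 with PA, 9.72 with ADSC medium and 9.11 in control cells. Gem read 11.13 with PA and ADSC medium, 8.70 with PA, 10.03 with ADSC medium and 9.52 in control cells. Nr4a1, a paralog of Nr4a2, read 13.28 with PA and ADSC medium, 11.56 with PA, 12.43 with ADSC medium and 11.72 in control cells. In all 3 genes, as in Cck, the array with both treatments was the highest and the PA array the lowest.

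The others of the 5 were Rgs2, a regulator of G protein signalling, at 1.33, and the cAMP phosphodiesterase gene Pde4b at 1.13. With ADSC medium alone 1 of 21, Pde4b, was 2-fold above control, against 0.533% of all genes, and the median was 0.32. With PA alone 1 of 20, the metabolic coactivator gene Ppargc1a, was 2-fold below control, against 0.599% of all genes, and the median was -0.17. With both treatments 6 of 20 were at least 2-fold above control, where 1.81% of all genes were: Nr4a2, Gem, Nr4a1, Pde4b, Areg and Egr1. Of these Egr1, an immediate early factor, and Areg, a growth factor of the EGF family, were also above control with PA alone, by 0.87 and 0.54, where Cck was below. Egr1 read 9.47 with PA and ADSC medium, 9.22 with PA, 8.82 with ADSC medium and 8.35 in control cells. Of the 20 list genes besides Cck with a value, 8 were above control with PA and 12 below. Against ADSC medium alone 3 of 21 were 2-fold higher with both, Nr4a2, Atf3 and Gem, where 1.26% of all genes were. As far lower was 1, the phosphodiesterase gene Pde10a at a level near background, where 0.477% of all genes were. Atf3, a stress-induced factor, was likewise above control with PA: it read 11.47 with PA and ADSC medium, 11.72 with PA, 10.30 with ADSC medium and 10.84 in control cells.

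**Figure D4:**
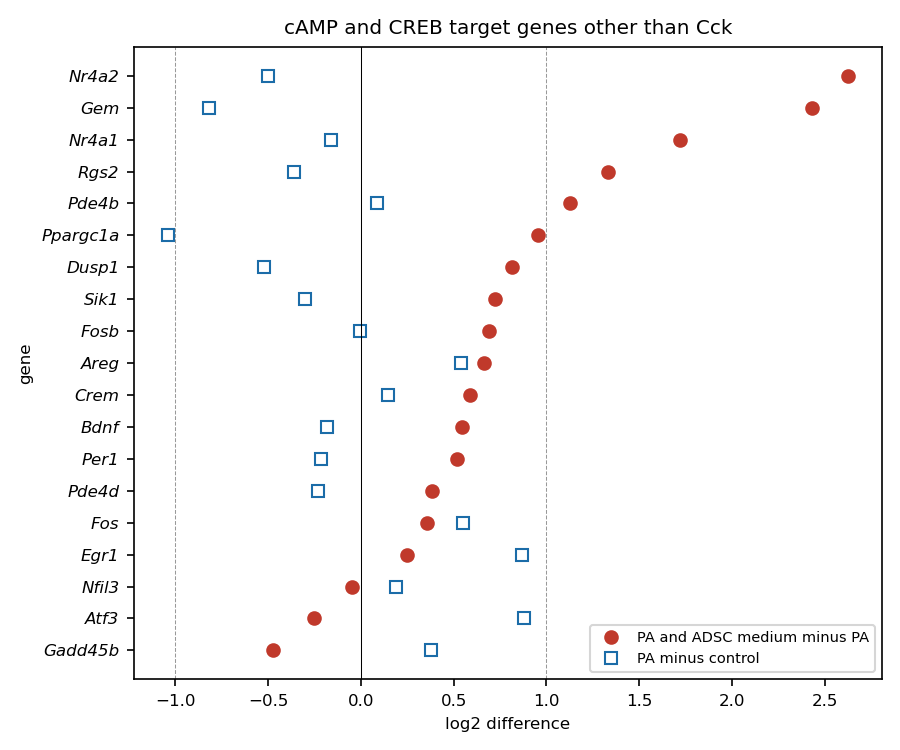
Log2 differences (horizontal axis) of 19 cAMP and CREB target genes other than Cck that were well above background on all 4 arrays. Filled circles are PA and ADSC medium minus PA, open squares PA minus control, and dashed lines mark a 2-fold difference. Nr4a2 and Gem lie at 2.63 and 2.43 by the circles, and Ppargc1a is the gene whose square passes the left line.

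Several markers of the cells themselves also differed between the arrays on which the 6 genes differed. Of 13 stellate or fibroblast markers, Pdgfrb was 1.33 log2 units higher with both treatments than with PA, while Acta2 and Des were 1.02 and 1.13 lower. Acta2, the smooth muscle actin of myofibroblasts, read 13.56 with PA and ADSC medium, 14.58 with PA, 13.35 with ADSC medium and 14.78 in control cells. Tagln, another contractile gene, was 2.14-fold lower with ADSC medium than in control cells (12.80 and 13.90), and the keratin gene Krt7 was 2.50-fold lower with both treatments than in control cells (7.87 and 9.19). Of 4 adipose markers well above background 1, Fabp4, was 2-fold higher with both treatments than with PA (11.99 and 10.95). The same held for 1 of 5 biliary or epithelial ones, Sox9 (8.95 and 7.65). Among the 18751 genes compared between both treatments and PA, 1.75% stood as far above PA and 0.507% as far below. Of the 5 macrophage, 4 endothelial, 5 neuron or enteroendocrine, 2 neutrophil and 1 hepatocyte markers with a value, 0 were 2-fold different between these arrays. What part any of this has in the levels of the 6 genes was not tested.

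Genes that neighbour the 6 on the chromosome, up to 3 on each side in the GRCm38 gene order, were added after values had been seen. Of 37 such neighbours 28 had a value, and their median for both treatments minus PA was 0.16, against -0.02 over all genes. In that comparison 2 of the 28 were at least 2-fold higher, against 1.75% of all genes. These 2 flank Ranbp3l. Slc1a3, a glutamate transporter gene on its one side, read 7.91 with PA and ADSC medium, 5.43 with PA, 7.05 with ADSC medium and 6.16 in control cells. Nadk2, a mitochondrial NAD kinase gene on its other side, read 10.08 with PA and ADSC medium, 8.60 with PA, 9.50 with ADSC medium and 8.99 in control cells. All 3 adjacent genes thus had the same order of arrays, and any link between them was not tested. The next gene out on each side, Nipbl and Skp2, differed by 0.08 and 0.14 between both treatments and PA. Immp2l, whose gene overlaps Lrrn3, lay between 9.15 and 9.40 on the 4 arrays.

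The authors' deposited tables are 2 lists of probe names: 1580 probes higher with PA than in control cells, and 920 higher with PA than with PA and ADSC medium. As both lists run in the direction opposite to that of the 6 genes, 0 of the 9 probes were in either of them.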

How the data were processed

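Total RNA of IMS/N cells was extracted with ISOSPIN Cell & Tissue RNA and labelled by the Quick Amp kit with Cy3, as the labels' protocols state. The deposited scanner values are spot intensities of 1-colour Agilent arrays (design 014868, build mm9, Feature Extraction 12.1.1.1, protocol GE1_105_Dec08, per the file headers), background-subtracted by the authors' scanner software but not normalized between arrays. Per the submitters' processing notes R 3.5.1 was the authors' software, and the series' design text names quantile normalization. Here control spots and 82 to 104 outlier spots per array were dropped, log2 intensities were averaged per probe and quantile-normalized with limma 3.58.1 in R 4.3.3, and differences were taken in Python 3.11.15 with pandas 2.3.3. Of 41174 probes 41146 had a value on all arrays, and 28680 of these were named through RefSeq accessions. A gene is its brightest probe. A comparison took in each gene that 1 or both of its arrays marked as well above background, and a dim value was raised to the array's lowest marked level, which makes the difference a bound. Ranks use genes measured on both arrays. The normalization, the differences and the pattern count were tested on simulated data. There every probe was detected and the error was the same at all levels. The rule for dim values and the choice of the brightest probe were thus not tested.

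Named genes are the 6 members, list genes 2-fold different in any comparison, close paralogs and receptors, the 3 nearest profiles of each member and the 10 non-members of the pattern with the highest gap; markers are named where defining or 2-fold different. Neighbouring genes and genes named for a place at a threshold or for opposite PA differences were chosen after their values were seen. Members and lists were chosen with earlier results of these data known. Depth has no meaning for arrays, and their number limits the precision: 1 per group, so no test was possible. Alternatives were scaling to the 75th percentile, normexp background correction with an offset of 50, the mean of a gene's probes detected on at least 1 array with dim values left as they are, no filter, and a 1.5-fold threshold.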

Additional observations from a re-analysis of the deposited data

Results flagged for a closer look

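In 6 of 6 genes the PA difference was below 0 without ADSC medium and above 0 with it. The gap between the PA difference with ADSC medium and without it was 3.46 for Ranbp3l, 2.03 for Cck, 2.43 for Slco4a1, 2.0 for Lrrn3, 2.39 for Fpr2 and 2.33 for Srpx2, in log2 units. Each value rests on 4 arrays with 1 per group, so the difference was not tested. The choice took genes lower with PA whose level with both treatments was above control or above ADSC medium alone. It thus favours opposite directions, so nothing is read from them. Over all 17355 genes measured on every array, 32 (0.184%) were at least 1.5-fold lower with PA alone and at least 1.5-fold higher with PA in the presence of ADSC medium. The 26 that were not members included Cxcl5, Gem, Abcg1, Slc1a3, Lce1f, Lce1g, Lce1h, Lce1i and Lce1j.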

How the results depend on the processing

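No paired analysis was possible because each group has 1 array, so no array was left out either. Of the 30 member differences, 30 moved by less than the spot error with scaling to the 75th percentile, while 21 moved with normexp and 7 with averaged probes (the mean over those detected on at least 1 array). Dropping the filter could not move any, as all 6 genes were well above background on all 4 arrays. By more than the spot error 0 changed direction. Within it, ADSC medium minus control changed sign for Fpr2 with averaged probes (0.094 to -0.009) and for Srpx2 with 75th percentile scaling (-0.0005 to 0.012). With normexp 2 of 6 members kept the 2-fold pattern, and 5 of 6 did with averaged probes. The one lost is Cck, whose second probe, at background on all arrays but that of ADSC medium, draws the mean toward 0 by construction. The normexp offset of 50 compresses low signals by its construction. This bears on Srpx2, Fpr2, the PA and control values of Cck and the PA value of Ranbp3l. For other changes the cause was not tested.

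With normexp the members' medians were -0.78 (PA minus control), 1.82 (both minus control), 3.02 (both minus PA) and 0.83 (both minus ADSC medium), and with averaged probes 1.71 (both minus control) and 2.62 (both minus PA). The gap between the effects with and without PA was, with normexp, 2.59 for Ranbp3l, 1.44 for Cck, 1.78 for Lrrn3, 1.06 for Fpr2 and 0.36 for Srpx2, and 1.03 for Cck with averaged probes.

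Counts of genes past the threshold are given for normexp, for no filter and for a 1.5-fold threshold, in this order. PA above control: 105, 664 and 532 (199 as reported), and below: 11, 552 and 596 (109). ADSC medium above control: 19, 623 and 420 (97), and below: 8, 492 and 234 (22). PA and ADSC medium above control: 147, 900 and 855 (330), and below: 10, 584 and 670 (77). Above PA: 97, 742 and 985 (328), and below: 4, 479 and 698 (95), or 60 with scaling to the 75th percentile. Above ADSC medium: 105, 659 and 653 (233), and below: 9, 526 and 579 (88). The pattern of the 6 genes was met by 4, 141 and 192 genes (43).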
